A study of Mus musculus with 3 samples.

Results

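Among the cells released from mouse aortas, a small group carried the transcripts of developing T lymphocytes that in health are found in the thymus. These thymocyte-like cells were chosen by their own UMIs (unique molecular identifiers, each standing for 1 captured transcript). A cell was a member if its UMIs of Dntt, Rag1 and Arpp21 summed to 2 or more, and likewise those of 6 T cell genes (Cd3e, Cd3d, Cd3g, Trbc1, Trbc2 and Lck), with under 1% of its UMIs from the muscle genes Acta2 and Tagln. The rule found 69 members among 26757 cells with at least 200 genes and under 20% mitochondrial UMIs. They are set beside 141 other T cells, which met the same T cell limit and held 0 UMIs of Dntt, Rag1 and Arpp21.

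The mice had the human gene for 1 of the isoforms APOE2, APOE3 and APOE4 inserted where mouse Apoe had been, on a C57BL/6J background. Males received a Western diet with 42% fat and 0.2% cholesterol for 16 weeks from 12 weeks of age, and the study asked how the APOE genotype affects the cells of the vessel wall. Aortas from the arch to the iliac bifurcation were trimmed of surrounding fat, digested with a mix of enzymes that held elastase, and pooled by genotype into 1 single-cell library each. The APOE2 pool came from 6 mice, the APOE3 pool from 5 and the APOE4 pool from 7. All animals thus shared the diet, the sex and the absence of the mouse gene, and no library of a wild-type or chow-fed mouse was analysed here. With 1 library a genotype, no difference between genotypes could be tested, and every interval below is a 95% interval that covers counting error only. The aortic label held for most cells, since 20902 of the 26757 cells drew 1% or more of their UMIs from Acta2 and Tagln.

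T cell development starts from progenitors that carry neither CD4 nor CD8 (double-negative) and that depend on Notch signals. These cells cut and join the T cell receptor β gene with the Rag1 and Rag2 recombinase, while terminal transferase (Dntt) adds bases at the joints, and the β chain is first displayed with the surrogate chain pre-Tα (Ptcra). A burst of division follows, then both co-receptors appear (double-positive), the α gene is rearranged, and cells that receive a signal through the new receptor are selected, mature and leave. Mature T cells have shut off the recombinase and gained homing, survival and effector genes, and this is the contrast that the rule exploits.

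The members gave 599340 UMIs in all, of which 281137 came from 34 APOE2 cells, 36407 from 5 APOE3 cells and 281796 from 30 APOE4 cells. A member held a median of 4901 UMIs, from 713 to 47744. The other T cells, 70 from APOE2, 11 from APOE3 and 60 from APOE4, gave 1036934 UMIs with a median of 5957. The depth of single cells was therefore similar in both groups, and the APOE3 values rest on few cells throughout. No cell barcode of a member occurred in another library, although 79 barcodes were shared between libraries among the 28506 deposited.

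The rule genes themselves are given as a description, since they chose the cells. A member held a median of 18 UMIs of Dntt, Rag1 and Arpp21 together, from 2 to 67. Dntt was found in 66 of the 69 members, Arpp21, which encodes a phosphoprotein of immature lymphocytes and neurons, in 64, and Rag1 in 46. Most members lay far from the limit. Only 2 held 2 UMIs and 2 held 3, whereas 51 held 10 or more, and just outside the limit 7 T cells held 1 UMI with a median of 25 UMIs of the 6 T cell genes, against 53 in members. Summed over members and written as CPM (counts per 1000000 UMIs), Dntt stood at 971 in APOE2, 1154 in APOE3 and 901 in APOE4, and Rag1 at 203, 275 and 227. These genes chose the cells, so their levels are no comparison of the libraries.

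These transcripts were rare outside the members. When each cell was thinned to 1000 UMIs, 91.0% of members (61 of 67) kept at least 1 UMI of the 3 genes, against 0 of 140 other T cells, which the rule fixes, and 0.0438% of 20542 muscle-rich cells. Before thinning, members had a median of 4901 UMIs and muscle-rich cells 15526, and the share in muscle-rich cells was 0.368%. The 69 members held 92.8% of all Dntt UMIs, 86.8% of Rag1 and 88.6% of Arpp21 among the cells kept. A further 8 droplets met both transcript limits but not the muscle limit, 3 APOE2 cells had thymocyte UMIs but fewer than 2 T cell UMIs, and 1 APOE2 cell failed the mitochondrial limit. These 12 are not counted as members.

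The start regions of 4 genes with UMIs in members and none in the other T cells, by the rule for Rag1 and Dntt, are shown because their products run the steps named above. Each is the 150 bases before the RefSeq start, 5′ to 3′ on the gene's own strand, in build GRCm38.p6, the patch series of the mm10 assembly that the authors used. Capitals mark 4 short motifs searched on both strands of the 250 bases before the start: CAGCTG and CACCTG (boxes read by E proteins such as Tcf12), CTTTGA (TCF1 and LEF1) and AGGTCA (a core letter group of nuclear receptor sites). Rag1 lies at chr2:101649533-101649682 on the minus strand, Rag2 at chr2:101624562-101624711 on the plus strand, Ptcra at chr17:46763713-46763862 on the minus strand and Dntt at chr19:41029125-41029274 on the plus strand.
Rag1: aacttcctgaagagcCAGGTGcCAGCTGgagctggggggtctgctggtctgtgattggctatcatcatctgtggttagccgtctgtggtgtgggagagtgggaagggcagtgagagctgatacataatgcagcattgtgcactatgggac
Rag2: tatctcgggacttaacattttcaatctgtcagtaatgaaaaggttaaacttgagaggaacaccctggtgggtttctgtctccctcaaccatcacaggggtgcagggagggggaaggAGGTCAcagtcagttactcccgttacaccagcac
Ptcra: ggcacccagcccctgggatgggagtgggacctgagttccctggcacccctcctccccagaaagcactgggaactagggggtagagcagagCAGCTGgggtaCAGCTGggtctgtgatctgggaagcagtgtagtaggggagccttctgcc
Dntt: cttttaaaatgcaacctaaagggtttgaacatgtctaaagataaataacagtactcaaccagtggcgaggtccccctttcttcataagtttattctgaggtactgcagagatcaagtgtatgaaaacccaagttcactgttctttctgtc

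Rag1 held a CACCTG box on the opposite strand beginning 135 bases before its start and a CAGCTG box at 128 bases, 1 base apart. Ptcra held CAGCTG at 60 and at 49 bases before its start, and Rag2 held AGGTCA at 34 bases. None of the 4 motifs stood in the 250 bases before Dntt. Such matches are common, since 27.7% of 32851 start regions of the same length held CAGCTG or CACCTG and 14.02% held AGGTCA, so they describe these sequences and mark no binding site. Of 12 member genes looked up, 8 were in the table and 6 had a single start.

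Thymocyte-like cells made up a smaller share of all cells in the APOE3 library than in the other 2, while their shares of the T cells lay close together. They were 0.289% of APOE2 cells (34 of 11772, exact Clopper-Pearson interval 0.200 to 0.403), 0.0742% of APOE3 cells (5 of 6737, 0.0241 to 0.173) and 0.364% of APOE4 cells (30 of 8248, 0.246 to 0.519). The log2 ratio to APOE3 was 1.96 (exact conditional binomial interval 0.60 to 3.67) for APOE2 and 2.29 (0.91 to 4.02) for APOE4, and APOE4 to APOE2 was 0.33 (−0.43 to 1.08). Both intervals against APOE3 lay above 0, while APOE2 and APOE4 were not separated at this depth. All cells with T cell transcripts moved in the same way, with log2 ratios to APOE3 of 1.84 for APOE2 and 2.18 for APOE4. Of those cells, members were 32.1% in APOE2 (34 of 106, 23.3 to 41.8), 29.4% in APOE3 (5 of 17, 10.3 to 56.0) and 31.9% in APOE4 (30 of 94, 22.7 to 42.3). The APOE3 interval is too wide to say that its share is the same. Without cells that held 5 or more UMIs of another cell type's list, 17 APOE2, 1 APOE3 and 15 APOE4 members were left. Their shares of all cells were then lower and, in APOE2 and APOE4, their shares of T cells higher, as given in the last section. The spread between animals cannot be told apart from genotype here, as each pool is 1 library.

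**Figure D1:**
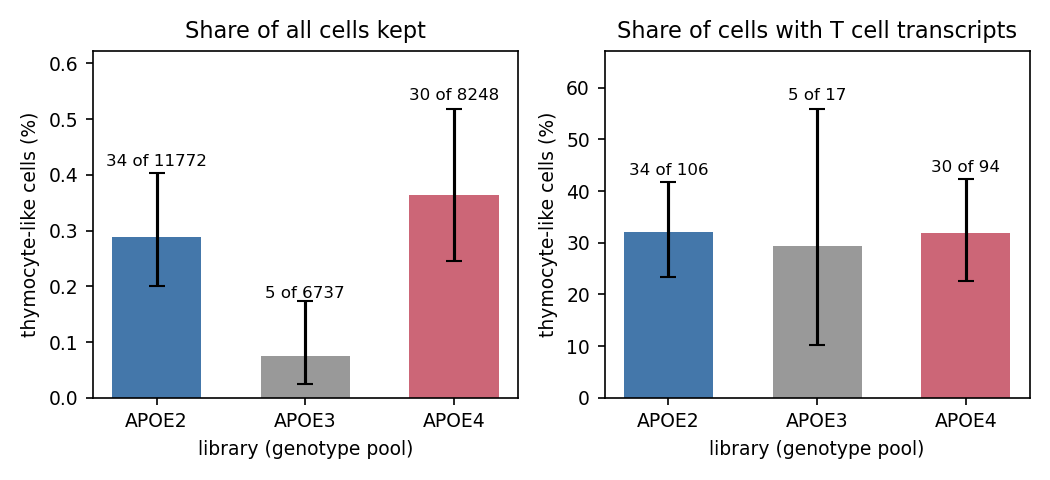
Thymocyte-like cells as a percentage of all cells kept (left) and of cells with T cell transcripts (right) in the APOE2, APOE3 and APOE4 libraries; bars give the share, lines the 95% Clopper-Pearson interval, and the numbers above them the cells. APOE3 is lowest among all cells, at 0.0742%, and the 3 shares of T cells lie between 29.4% and 32.1%.

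The co-receptor genes, which the rule did not read, were higher in members than in other T cells in every library where both held UMIs. Cd8a, 1 chain of CD8, stood at 672 CPM in APOE2 members, 467 in APOE3 and 735 in APOE4, against 28.6, 41.4 and 123 in other T cells, and over the pooled libraries it was 10.4-fold higher (log2 ratio 3.37, interval 3.002 to 3.76). Cd8b1, the other chain, was 4.97-fold higher (log2 2.31). Cd4 reached 142, 27.5 and 142 CPM in members against 19.7, 0 and 61.7, and was 3.89-fold higher (log2 1.96, 1.38 to 2.57). The member level was above that of other T cells for all 3 genes in each library, but Cd4 in APOE3 was a single UMI. These genes were measured in the same cells that the rule picked, so the ratios are a description and carry no test.

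Single members often held both co-receptors, as double-positive thymocytes do. At the depth as sequenced, 35 of 69 members (50.7%) had UMIs of Cd4 and of Cd8a or Cd8b1, 22 had Cd8 alone, 1 had Cd4 alone and 11 had neither, whereas 3, 32, 16 and 90 of the 141 other T cells fell into these classes. By library, 18 of 34 APOE2, 1 of 5 APOE3 and 16 of 30 APOE4 members held both. Thinned to 1000 UMIs, the double-positive share was 16.4% (11 of 67, interval 8.49 to 27.5) in members, 0 of 140 in other T cells, which allows up to 2.14%, and 0 of 20542 in muscle-rich cells. Cd4 had a median of 1 UMI in a member, so many cells lost it on thinning. In muscle-rich cells as sequenced, with a median of 15526 UMIs, both were found in 0.0335% (7 of 20902).

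Because members carried so much of these transcripts, they held most of the co-receptor UMIs found in any T cell of the pools. Of the Cd8a UMIs in all cells with T cell transcripts, members held 90.4% in APOE2, 85% in APOE3 and 78.7% in APOE4. Of the Cd4 UMIs they held 78.4% in APOE2 (40 of 51), 1 of 1 in APOE3 and 61.5% in APOE4 (40 of 65). Foxp3, the regulatory T cell factor, was at 0 in members, with 2 UMIs in all T cells.

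The 11 members with neither co-receptor differed from the other 58 in Il2ra, the γ constant genes, Notch1, Hes1 and Notch3. Il2ra, the CD25 chain that marks double-negative thymocytes before β selection, gave 44 UMIs in 8 of these 11 cells and 4 UMIs in 2 of the other 58, which is 546 against 7.71 CPM (log2 ratio 6.15, interval 4.69 to 8.08). The receptor γ constant genes Tcrg-C1, Tcrg-C2 and Tcrg-C4 together gave 96 UMIs in 7 of the 11 and 3 UMIs in 1 of the 58, and they were also found in 49 of the 141 other T cells (207 UMIs). Genes of still earlier progenitors were nearly absent from the 11, with Kit at 3 UMIs in 1 cell, Lyl1 at 2 in 1, Bcl11a at 4 in 2, and Hhex and Mycn at 0. At least 1 of these kinds of transcript was present in 9 of the 11, and the 11 cells held 13.5% of the members' UMIs but 91.7% of their Il2ra. Their median depth was 4762 UMIs, against 5048 in the other 58, and their deepest cell had 19412 against 47744. In the 11, mitochondrial shares reached 16.1, 12.5, 9.57 and 8.13%. Those cells held 11, 5, 5 and 7 UMIs of the 6 T cell genes. The median share over all members was 1.89%, and the highest among the other 58 was 17.7%. Cycling cells were 2 of the 11, against 14 of 35 members with Cd4 and Cd8 and 14 of 22 with Cd8 alone. Whether cell quality or cycling affected the split was not tested.

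Notch1, Hes1 and Notch3, picked after their values were seen, stood higher in the members without a co-receptor. Dtx1 of the same list gave 7 UMIs in all members and is not compared. Of all 2201 genes with at least 50 UMIs in members, 6.91% were at least 2-fold higher in the cells without a co-receptor and 17.4% lower. Il2ra, each of the γ constant genes, Ptcra and Notch3 fell short of 50 UMIs in members, so these shares do not cover them. Notch1 stood at 310 CPM in members without a co-receptor and 61.7 in those with one (log2 2.33, 1.51 to 3.13), Hes1, a direct Notch target, at 930 against 185 (log2 2.33), and Notch3 at 10 against 1 UMIs. Hes1 was uneven, since 5 of the 11 cells held all of its 75 UMIs there. Of these UMIs 1 APOE3 cell held 29 and 1 APOE2 cell 28, and that APOE2 cell had 0 UMIs of Il2ra, Ptcra and Notch1. Ptcra was 136 against 52.1 CPM (log2 1.39, 0.23 to 2.45). Of 13 tested genes of the double-positive list, 6 were at least 2-fold lower in the cells without a co-receptor, none was higher and 7 were neither, with a list median of −0.60 on the log2 scale. Endou was at 62.0 against 384 CPM (log2 −2.63), and the chromatin organiser Satb1 at 335 against 1589 (log2 −2.25), whereas the intervals of Aqp11 (log2 −0.54, −1.41 to 0.23) and Cd24a (−0.37, −1.28 to 0.44) included 0. Trac, the α constant gene, was at 1 against 97 UMIs (log2 −3.91, −9.23 to −1.40). Of 3 tested genes of recombination and end joining, Hmgb1 and Hmgb2 were lower in the cells without a co-receptor, of which 2 were cycling. The cells were split by co-receptor UMIs after selection, 5 came from APOE2, 3 of the 5 members from APOE3 and 3 from APOE4, and the split was not tested.

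**Figure D2:**
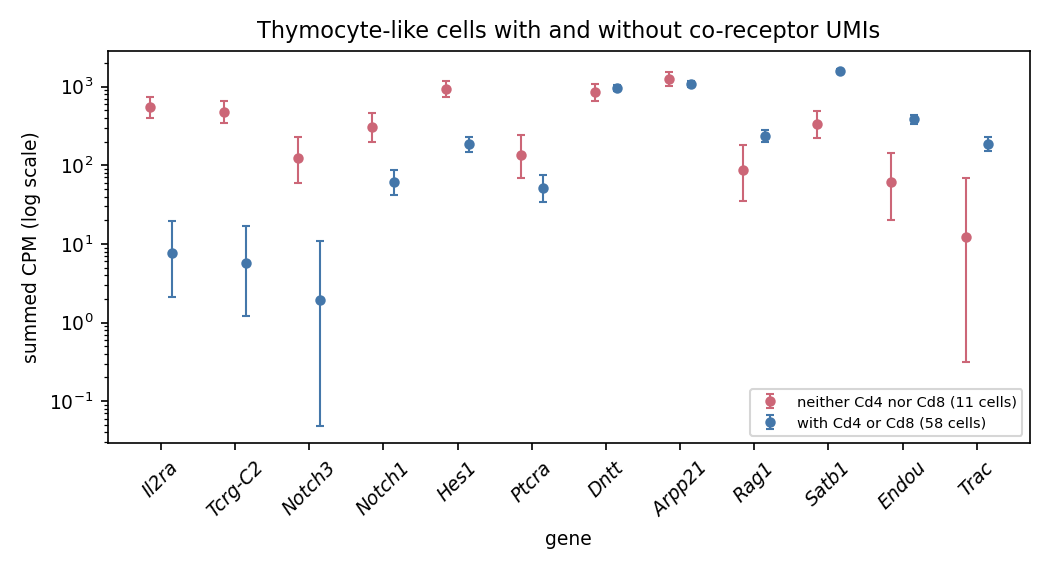
Summed CPM on a log axis for 12 genes in members with neither Cd4 nor Cd8 UMIs (red, 11 cells) and in members with either (blue, 58 cells); lines are 95% Poisson intervals for counting error. Il2ra, Tcrg-C2 and Notch3 lie higher in the red group, and Satb1, Endou and Trac lie lower. Of the genes that the rule read, Dntt and Arpp21 overlap, while Rag1 lies lower (7 against 124 UMIs, log2 −1.46, −2.81 to −0.38).

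Transcripts of the division cycle were frequent in members and rare in the other T cells at equal depth. Over 30 genes of S phase and of G2 and M phase, 38 members held 0 to 8 UMIs and 31 held 14 to 559. Thinned to 1000 UMIs, 44.8% of members (30 of 67, interval 32.6 to 57.4) held at least 3 of these UMIs, against 0.714% of other T cells (1 of 140) and 0.219% of muscle-rich cells. The share was 48.5% in APOE2 (16 of 33), 1 of 4 in APOE3 and 43.3% in APOE4 (13 of 30), with intervals that overlapped. Unthinned, the shares were 57.97% in members, 35.5% in other T cells and 56.3% in muscle-rich cells, whose median depth was 15526 UMIs, so the unthinned class did not set members apart from muscle-rich cells. A class set by a count is a range of cells and not a cell type.

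All 11 tested genes of the S phase list and all 15 of the G2 and M phase list were at least 2-fold higher in members, as were 17.3% of all 5054 genes tested. Mki67, a marker of dividing cells, was at 494, 82.4 and 465 CPM in APOE2, APOE3 and APOE4 members and at 1.79, 13.8 and 4.93 in other T cells (118-fold pooled, log2 6.88, 5.51 to 8.77), and the topoisomerase gene Top2a was 102-fold higher. Of the Mki67 UMIs, 1 member held 18.3%, and 28 members held at least 1. Without cycling cells in both groups, which left 39 members and 140 other T cells, no gene of the G2 and M phase list had enough UMIs to be compared and 1 of 3 S phase genes was higher. The Mki67 ratio then turned to a log2 of −0.81, which follows from the choice of cells, since cycling cells were called by genes of these lists. The 67 histone cluster genes made up 11619 CPM in members and 625 in other T cells.

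**Figure D3:**
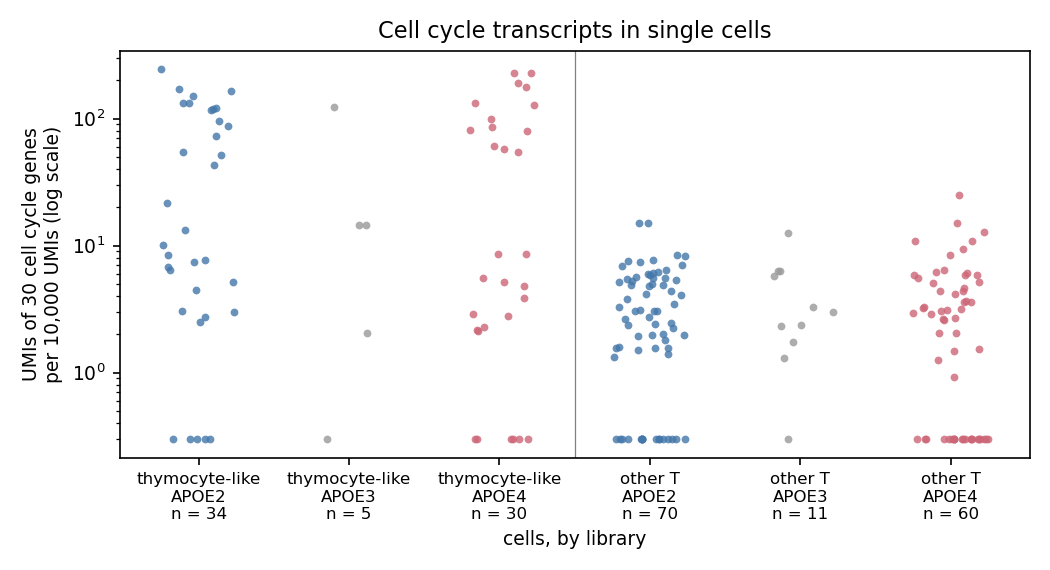
UMIs of 30 cell cycle genes per 10000 UMIs of the cell, on a log axis, for each thymocyte-like cell (left) and each other T cell (right) by library; each point is 1 cell, and cells with 0 are drawn at the bottom. Members fall into a low and a high group in APOE2 and APOE4, and the other T cells lie in the low range.

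Cycling members were deeper than the 37 members that were not cycling, with a median of 8556 UMIs against 3616. Of all 2196 genes with at least 50 UMIs in members, 14.2% were at least 2-fold higher in cycling members and 11.9% lower, with a median log2 ratio of 0.019. Of 13 tested genes of the double-positive list, 4 were lower in cycling members, namely Themis, a factor of thymocyte receptor signalling (log2 −1.42), Ccr9 (−1.35), Ets2 (−1.33) and Myb (−1.28). None was higher and 9 were neither, among them Satb1 (−0.64), Tcf7 (−0.11) and Endou (−0.09). Of 6 tested genes of T receptor signalling, 3 were lower, including Trac (87.9 against 310 CPM, log2 −1.82, −2.46 to −1.20) and the pan-leukocyte phosphatase gene Ptprc (−1.23), and 3 were neither, including Lat (−0.12). Cd4 was lower (log2 −1.28, −1.96 to −0.61). Of the CD8 chains, the interval of Cd8b1 lay below 0 (−0.86, −1.13 to −0.59), while that of Cd8a included 0 (−0.11, −0.40 to 0.19). Il2ra was almost confined to cells that were not cycling, with 1 against 47 UMIs, and Hmgb2, a chromatin protein of dividing cells, was higher in cycling cells (log2 4.38). Of the Il2ra UMIs, 44 lay in the 11 members without a co-receptor, of which 2 were cycling. The genes that the rule read are not compared here, since it asked for the same number of UMIs at every depth. Both groups contained members with Cd4 and Cd8, 14 of 30 cycling and 20 of 37 not.

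The receptor genes are described from sparse UMIs. Trbc1 and Trbc2, which the rule read, together stood at 5456 CPM in members and 1034 in other T cells. Of the members, 38 held a UMI of a β variable gene, spread over 18 genes with no more than 6 members sharing 1 of them (Trbv13-2). The joining gene Trbj2-7 was found in 11 members and 1 other T cell. Trdv4, a δ variable gene with 101 UMIs in 28 other T cells, was at 0 in members, as was Tcrg-V6 (18 UMIs in 14 other T cells). Other δ genes had UMIs in members. Trdc, the δ constant gene, gave 157 UMIs in 25 of the 69 members (36.2%) and 441 in 39 other T cells, and the δ variable genes together 29 UMIs in 13 members and 111 in 33 other T cells. Trdv5 (13 against 2 UMIs) and Trdv1 (8 against 1) had more UMIs in members, and Trgv2 gave 16 UMIs in 5 members and 31 in 15 other T cells. No immunoglobulin heavy variable gene had a UMI in either group, although Ighm, the heavy chain constant gene, gave 137 UMIs in 42 members and 75 in 29 other T cells. Segment transcripts were sparse, and reads of near-identical variable genes may have been lost or split in the counting.

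Along the α locus on chromosome 14 the members' variable genes lay toward the end that is rearranged first. In mm10 the 128 Trav genes span chr14:52427928-53977678, the constant gene lies beyond them, and first rearrangements are known to use the variable genes nearest the joining genes. Of 37 pairs of a member and a Trav gene with a UMI, 34 (91.9%, interval 78.1 to 98.3) fell among the 43 genes nearest the constant gene, against 23 of 41 pairs (56.1%, 39.7 to 71.5) in other T cells. The 2 intervals did not overlap, but 10 members held more than 1 Trav gene, so pairs are not independent. Trav21-dv12 alone, at chr14:53875984-53876752, gave 19 UMIs in 10 members and 2 UMIs in 2 other T cells. The dv in its name marks a variable gene that the δ chain shares. Another such gene, Trav15-1-dv6-1, was found in 1 member and 5 other T cells. Trdc was found in 25 of the 69 members, and whether the UMIs of shared genes came from α or δ transcripts was not tested. Among the 60 joining genes, 8 of 17 pairs in members and 2 of 13 in other T cells used the 20 lying farthest from the constant gene, and these intervals overlapped.

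**Figure D4:**
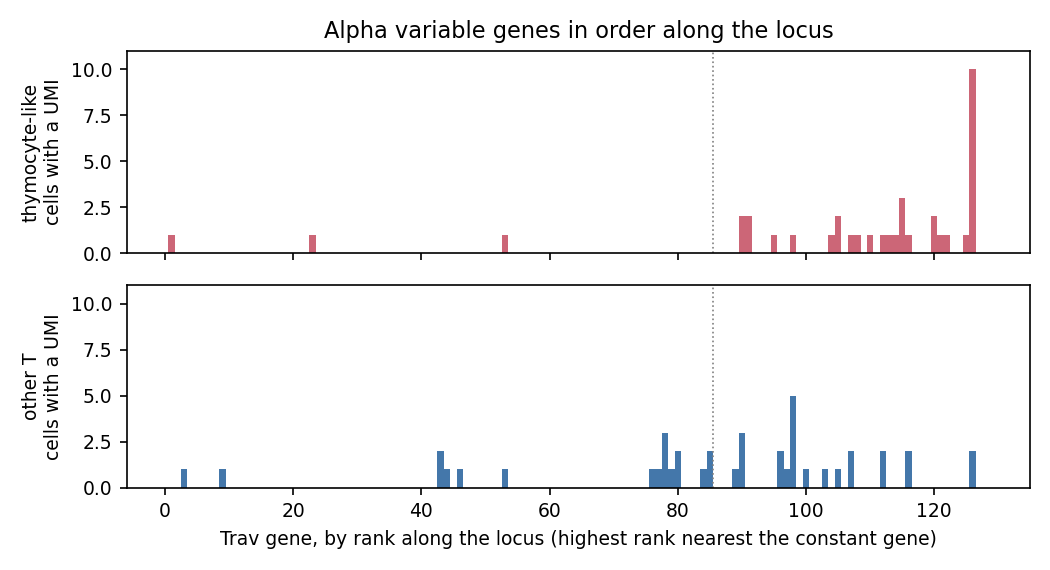
Number of thymocyte-like cells (top) and other T cells (bottom) with a UMI of each of 128 Trav genes, in order along the locus; the dotted line bounds the 43 genes nearest the constant gene. Members lie almost all to the right of the line, with 10 at Trav21-dv12, while other T cells lie on both sides of it.

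Across all genes the members and the other T cells differed widely. Among 5054 genes with at least 50 UMIs in both groups together, 872 (17.3%) were at least 2-fold higher in members and 702 (13.9%) at least 2-fold lower. The median gene was higher in members by a log2 of 0.21, and ratios centred on it turned the split of called genes from 55.4% to 42.3% higher. As the rule used this contrast, the counts below are descriptions and nothing is read from their excess over these shares. Each list was put together with earlier results of these data known.

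After the cell cycle lists, whose medians were 6.97 (G2 and M phase) and 3.33 (S phase) on the log2 scale, or 6.67 and 3.38 with genes at 0 placed at the bound of 3 UMIs, genes of the double-positive stage and of recombination lay on the higher side. Of 14 tested genes of double-positive thymocytes, 13 were higher and 1, Lef1, was neither (log2 −0.14), with a list median of 2.30 on the log2 scale. Aqp11 gave 155 UMIs in 45 members and 0 in other T cells, at least 89.4-fold higher against a floor of 3 UMIs, and Endou gave 204 UMIs in 56 members against 1 UMI (log2 8.46, 5.97 to 13.77). Most UMIs of both genes lay outside the T cells, since members held 17.2% of Aqp11 and 18.8% of Endou UMIs among all cells kept. Cd24a, the heat-stable antigen lost on maturation, was 37.5-fold higher (log2 5.23), Myb 30.7-fold (4.94) and Ccr9, the chemokine receptor that guides progenitors to the thymus, 12.0-fold (3.59). Satb1 stood at 1544, 1209 and 1324 CPM in the 3 member groups and 172, 345 and 676 in the other T cells, and Tcf7, which encodes TCF1, at 1060, 1181 and 834 against 109, 193 and 261. Each of these genes was higher in members in every library in which both groups held UMIs.

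Of 6 tested genes of recombination and end joining, 4 were higher. Xrcc6, which encodes the Ku70 end-binding protein, was 15.5-fold higher (log2 3.95, 3.31 to 4.66), Dclre1c, the hairpin-opening nuclease Artemis, 2.77-fold, and Hmgb1 and Hmgb2, which bend DNA for the recombinase, 6.39-fold and 15.2-fold. Without cycling cells Hmgb2 was no longer called (log2 0.12), and without APOE4 Dclre1c was not, its log2 ratio being 0.54 in APOE2, −0.01 in APOE3 and 2.33 in APOE4. Prkdc and Xrcc4 were neither. Rag2 (36 UMIs in 27 members) and Ptcra (38 UMIs in 24 members) were at 0 in the other T cells, at least 20.8-fold and 21.9-fold higher, but fell short of 50 UMIs. Of the UMIs among all cells kept, members held 78.3% for Rag2 and 32.8% for Ptcra. Of the pre-T receptor and Notch list, Notch1 (log2 2.72) and Hes1 (1.35) were higher and Il2ra neither (−0.08), with UMIs in other T cells too. Hes1 was no longer called with the mean of each cell's CPM, without APOE4, or without cells holding 20 or more UMIs of muscle, fibroblast or macrophage genes, and 1 member held 28.7% of its UMIs.

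Genes of mature T cells lay on the lower side. All 15 tested genes of maturation and exit from the thymus were lower, with a median log2 ratio of −3.78. S1pr1, the receptor that lets T cells leave the thymus, gave 1 UMI in members and 161 in other T cells (log2 −6.54, −11.85 to −4.04). Il7r, the survival receptor that double-positive cells lack, was at 28.5, 0 and 14.2 CPM in members against 737, 1021 and 619, and Gimap3 and Gimap4 were at 0 in members. The class I genes H2-K1 (log2 −3.79), H2-D1 (−2.77) and B2m (−1.71) were lower in each library, and Bcl2 was 5.89-fold lower. The member values of S1pr1, Il7r and H2-K1 were below those of the other T cells in all 3 libraries. Without cycling cells 12 of the 15 were lower, and Klf2 was among those that were not.

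Of 19 tested effector and tissue memory genes, 16 were lower and none higher. Cxcr6, Il2rb, Ccr2, Cxcr3 and Gzmb were at 0 in members, and Cxcr6, a homing receptor of tissue-resident T cells, was at least 82.8-fold lower. Ccl5, a chemokine of effector T cells, gave 1 UMI in members and 1923 in 40 other T cells. Gzma was lower when pooled (log2 −1.74) but higher in APOE2 (1.03), where 1 other T cell held 39 of 42 UMIs and 1 member 22 of 43. Genes of positive selection and lineage choice were mixed, with 1 of 9 higher (Id3, log2 1.51), 3 lower (Cd69, Gata3 and Runx3) and 5 neither, and so were the genes of T receptor signalling, with Lat higher and Fyn and Cd2 among the 3 that were lower. Id3 was no longer called without APOE4 (log2 0.78 in APOE2 and 2.52 in APOE4), and Gata3 was not called without cycling cells. Of 9 immediate early and heat shock genes that tissue digestion is known to raise, 8 were lower in the pooled members. This rested on APOE2, as 1 of the 9 was lower without that library, and 3 were lower without cycling cells. In APOE4 the log2 ratio was 1.44 for Fos, 0.69 for Fosb and 1.89 for Jun, but 1 member held 84 of 145 Fos, 32 of 45 Fosb and 112 of 237 Jun UMIs, and without the member with most UMIs of the gene the ratio was 0.34 (−0.17 to 0.85) for Fos, −0.94 for Fosb and 1.12 for Jun. Of 5 tested cholesterol genes, 2 were higher, 1 was lower and 2 were neither, with a list median of −0.29 on the log2 scale. Srebf2 (log2 1.33) lay on the higher side and Abca1 (−1.93) on the lower.

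**Figure D5:**
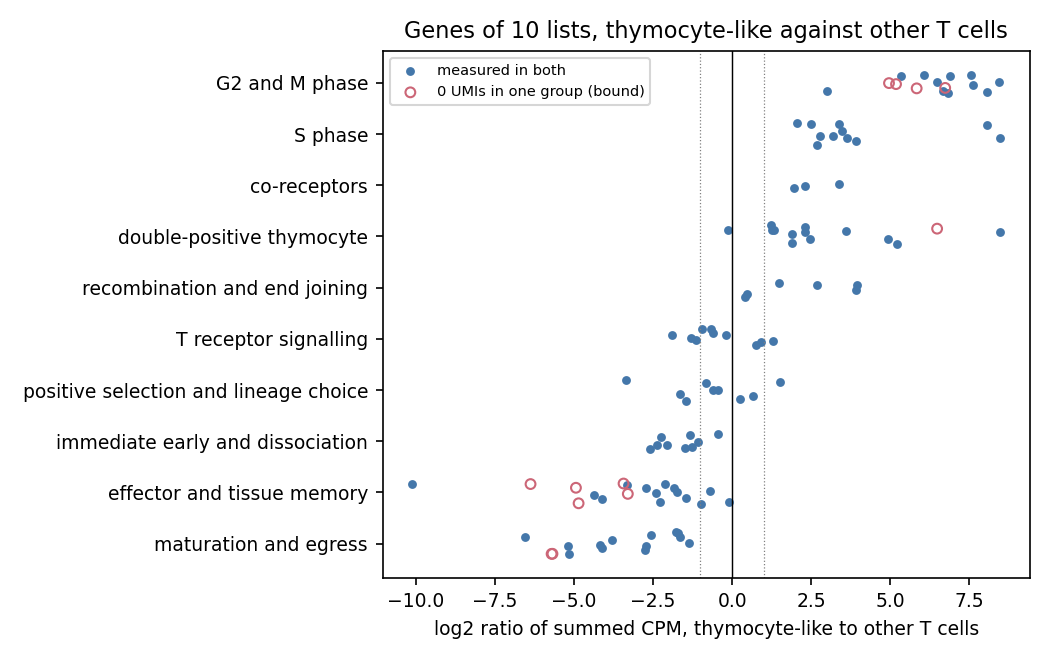
Log2 ratio of summed CPM, thymocyte-like to other T cells, for every tested gene of 10 lists; filled points had UMIs in both groups, open points had 0 UMIs in 1 group and are placed at the bound that 3 UMIs give, and dotted lines mark a 2-fold ratio. Cell cycle, co-receptor and double-positive genes lie to the right, with Lef1 left of 0, and all maturation genes lie to the left.

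Beyond these lists, the 15 genes furthest on the higher side with the same direction in every library were led by genes of dividing cells. Hist1h2ab gave 262 UMIs in 23 members and Cdca3 104 UMIs in 24, and both were at 0 in other T cells. Histone genes were 5 of the 15, and Kif11, Kif15, Spc25, Dtl and Esco2 also serve replication or the mitotic spindle. Ly6d, a surface protein of early lymphoid cells, differed from these, with 631 UMIs in 52 members and 4 UMIs in 3 other T cells (log2 8.09), and no member held more than 6.18% of them. Rapgef3 and Dgkeos were at 0 in other T cells and found in 33 and 41 members. On the lower side stood Il18r1 (0 against 259 UMIs in 69 cells), the receptors Klrk1 and Klrd1 of cytotoxic cells, Il23r of IL-17-producing cells, and Gpr183 (3 against 315 UMIs). Fn1 was on this list too, but 1 other T cell held 95.7% of its UMIs.

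Between the APOE4 and APOE2 members few genes passed a 2-fold ratio. Of 2026 genes with at least 50 UMIs in both together, 52 (2.57%) were at least 2-fold higher in APOE4 and 27 (1.33%) at least 2-fold lower. Cd8a (log2 APOE4 to APOE2 0.13, −0.16 to 0.42), Cd4 (0.00, −0.67 to 0.67) and Mki67 (−0.09, −0.44 to 0.27) had intervals that included 0. Other listed genes did not, among them Hmgb2 (0.62, 0.49 to 0.74), Slamf6 (0.86, 0.07 to 1.68) and Tcf7 (−0.35, −0.599 to −0.094). Il2ra (−2.33, −3.88 to −1.04) and Dclre1c (1.34, 0.29 to 2.499) were more than 2-fold apart but fell short of 50 UMIs. Il2ra gave 6 UMIs in APOE4 and 30 in APOE2, where 1 member held 63.3%. Among genes with at least 50 UMIs, the 10 named as furthest apart were known from fibroblasts and muscle, such as Cygb, Serpinf1, Igfbp4, Col1a2, Dmd, Tpm2, Tagln and Cald1. Dcn, a matrix proteoglycan, gave 619 UMIs in APOE4 and 3 in APOE2, and 1 member held 64.0% of the former. Acta2 gave 180 UMIs in APOE2 and 60 in APOE4, and 1 APOE2 member held 62.2% of the former. These shares were the lowest, since for each of the 10 genes 1 member held most UMIs of the higher library, up to 95.2% for Cald1 and 96.9% for Igfbp4.

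Transcripts of muscle, fibroblast and B cell markers were found in both members and other T cells, and fibroblast markers differed in opposite directions in APOE2 and APOE4. Muscle markers summed to 1116 CPM in members and 1271 in other T cells, with Acta2 the most abundant and Des at 0, and fibroblast markers to 1999 and 2767 CPM, with Dcn the most abundant and 2 members holding 836 and 286 UMIs. By library, fibroblast markers were at 181, 82.4 and 4060 CPM in APOE2, APOE3 and APOE4 members and at 4098, 82.8 and 1411 in other T cells, so the members were lower in APOE2 and higher in APOE4. Muscle markers were at 1739, 1181 and 486 CPM in members and at 1751, 925 and 671 in other T cells. Macrophage markers summed to 110 CPM, with 7 members holding any. The B lymphocyte markers summed to 304 CPM in members and 185 in other T cells, with 46 members holding any and 14 holding 5 or more UMIs, and in members they were at 299, 247 and 316 CPM in APOE2, APOE3 and APOE4. Ighm was the most abundant and higher in members (229 against 72.3 CPM, log2 1.66), while Ms4a1 was at 0. The B cell progenitor markers summed to 58.4 against 81.0 CPM, nearly all of it Ebf1 with 34 UMIs in 5 members. Of the B cell progenitor markers Vpreb1, Vpreb3, Igll1 and Blnk were at 0, although B cell progenitors also use Dntt and Rag1. All 6 neutrophil markers were at 0, and 5 of 8 markers of NK and innate lymphoid cells were, with a sum of 51.7 CPM against 851. Without members and other T cells that held 20 or more UMIs of muscle, fibroblast or macrophage genes, 65 members and 132 other T cells were left, and 12 of 14 double-positive genes were higher. That setting was chosen after seeing the data. Without cells that held 5 or more UMIs of any other cell type's list, 33 members and 40 other T cells were left, 9 of 10 double-positive genes were higher, and of 35 named genes called that could be compared, 34 were still called. The named genes included Lck, which the rule read, so this tally is a description.

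Most markers of thymic epithelium were absent from the members and from the other T cells alike, and other thymic stroma was not examined. Among the thymic epithelial markers, Foxn1, Psmb11, Prss16, Aire, Krt5, Krt8 and Dll4 were at 0 in both groups. Both were chosen by T cell transcripts, so these zeros are a description. In all 26757 cells kept, Foxn1 gave 1 UMI, Aire 1, Psmb11 4 and Prss16 7. Krt8, Dll4 and Epcam, which other epithelia or endothelium also use, gave 235, 111 and 56 UMIs in all cells, and of the Epcam UMIs 11 were in 8 members. The list summed to 43.4 CPM in members and 22.2 in other T cells. Ccl25, a thymic chemokine, was found in 12 members with 15 UMIs, but its UMIs were spread over 911 APOE2, 488 APOE3 and 553 APOE4 cells of all kinds. Where in the dissected tissue the thymocyte-like cells lay was not measured.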

How the data were processed

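Raw UMI counts per gene and barcode were the values the authors deposited, made with Cell Ranger (version 7.0.1 per the file headers) on mm10 from 3 libraries; whether intronic reads were counted is not given in the sources used here. From these counts, cells with at least 200 genes and under 20% mitochondrial UMIs were kept and members found by the rule. The members and all gene lists were chosen with earlier results of these data known. UMIs were summed over cells, and genes with 50 or more UMIs in both groups together were called at a 2-fold ratio after adding 0.5 UMIs to each sum, with no test, since each genotype had 1 library. Medians over genes and the single-gene ratios of the other settings carry the same 0.5 UMIs. The other printed ratios and folds, and those without 1 cell, add nothing, with a count of 0 set to a floor of 3 UMIs. Intervals were Clopper-Pearson, Poisson or conditional binomial. Thinning drew 1000 UMIs from each cell and left out 2 members and 1 other T cell. No doublet caller was run. Instead, cells with markers of another cell type were left out as an alternative. Beyond the lists, the text names the 15 genes with the largest ratio in each direction (at least 100 CPM in either group and 1 direction in every library) and the 5 furthest apart in each direction between APOE4 and APOE2 members. Single genes of the cycling and co-receptor splits and of the receptor segments were picked after their values were seen. Python 3.11.15, numpy 2.4.6, scipy 1.17.1 and pandas 2.3.3 were used, and ratios and intervals were tested on simulated data. Some genes of the lists are not reported here.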

Additional observations from a re-analysis of the deposited data

Results flagged for a closer look

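In 8 droplets that passed both transcript limits, 1% or more of the UMIs came from Acta2 and Tagln. They were therefore counted among the muscle-rich cells and not among the members or other T cells. They held a median of 65152.5 UMIs and 3.5 UMIs of Dntt, Rag1 and Arpp21, 7 came from APOE2 and 1 from APOE4, and all 8 held Cd8 UMIs. By comparison 9028 APOE2, 5560 APOE3 and 6314 APOE4 cells were as rich in muscle transcripts.

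For 14 genes of the lists and named genes with at least 50 UMIs, the ratio of members to other T cells lay on opposite sides of 0 in APOE2 and APOE4, with both counting intervals away from 0. These differences were not tested, as each genotype had 1 library. The log2 ratio in APOE2 and then APOE4 was −3.17 and 2.36 for Egr1, −3.90 and 1.44 for Fos, −4.41 and 0.69 for Fosb and −1.59 and 1.89 for Jun. In APOE4, 1 member held 127 of 150 Egr1, 84 of 145 Fos, 32 of 45 Fosb and 112 of 237 Jun UMIs, and in APOE2 1 other T cell held 348 of 771 Fos and 159 of 339 Fosb UMIs. The ratios were 1.03 and −2.93 for Gzma, 2.38 and −1.03 for Bcl2l11, 1.94 and −0.55 for Tox, 0.66 and −0.82 for Lef1, −0.87 and 0.65 for Trdc and −2.14 and 1.43 for Apoe, the row named for the mouse gene, with 19 UMIs in these members, of which 1 APOE4 member held 11. They were −6.50 and 1.85 for Dcn, −8.80 and 1.28 for Lum, −4.38 and 0.60 for Col1a2, which are fibroblast markers, and 0.42 and −0.79 for Tagln, a muscle gene of the rule. In APOE4 the same member, with 28642 UMIs of which 836 were of fibroblast markers, held the most UMIs of 8 of the 14 genes (Apoe, Col1a2, Dcn, Egr1, Fos, Fosb, Jun and Lum). Leaving out the member, or the other T cell, with most UMIs of the gene in a library, a setting chosen after seeing the data, turned the ratio of 5 of the 14 genes (Apoe, Col1a2, Egr1 and Fosb in APOE4 and Tagln in APOE2), and 2 of the 14, Dcn and Jun, kept all their intervals away from 0 on the same sides.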

How the results depend on the processing

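Without cells that held 5 or more UMIs of another cell type's list, 33 members were left (29 of the 69 held 5 or more of the muscle list and 14 of the B cell list). The shares of cells became 0.145% in APOE2, 0.0149% in APOE3 and 0.183% in APOE4, the shares of T cells 43.6% in APOE2 and 44.1% in APOE4, and 225 genes were higher and 138 lower. The double-positive share was 50.7% without thinning and 2.99% at 2 UMIs of each co-receptor. The cycling share without thinning was 57.97% in members and 35.5% in other T cells, whose share was 0% at 500 UMIs or with a limit of 5 UMIs and 7.35% at 2000 UMIs. A minimum of 20 UMIs gave 1614 genes higher and 1255 lower, and 200 UMIs gave 204 and 202, because the number of genes compared changed. Leaving out 1 library at a time gave 517 to 842 genes higher and 357 to 696 lower (lowest without APOE2), and a cycling share of other T cells of 0% (without APOE2) to 1.25% (without APOE4). Mki67 turned to a log2 ratio of −0.81 without cycling cells. Without the member with most UMIs of the gene, the APOE4 ratio turned to −0.32 for Apoe, −2.45 for Col1a2, −0.19 for Egr1 and −0.94 for Fosb, and the APOE2 ratio of Tagln to −1.29. With a lowest value of −3.34 without APOE4, Fos turned to a log2 ratio of 0.76 without APOE2, and Gzma, at −2.85 without APOE2, turned to 1.025 without APOE4. Of 45 named genes called, all were still called with ratios centred on the median gene, 43 with the mean of each cell's CPM, 39 without cycling cells (lost were Fos, Gata3, Hmgb2, Klf2, Mki67 and Top2a), 43 without APOE2 (Fos and Lck), 41 without APOE4 (Dclre1c, Gzma, Hes1 and Id3) and 42 without the cells holding 20 or more UMIs of muscle, fibroblast or macrophage genes, a setting chosen after seeing the data. The 45 included Lck, which the rule read, so these tallies are descriptions. No other setting for the filter, the muscle limit or the UMI minimums of the rule moved a share beyond its interval. No paired analysis was possible because each genotype had 1 library. APOE3, with 5 members, limits every comparison it enters.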
